A study of Mus musculus with 16 samples.

Results

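Replacement histone variants are histones whose genes are, for the most part, transcribed outside S phase as well. Their proteins take the place of canonical histones in parts of the chromatin. The 10 members are the mouse genes H3f3a, H3f3b, H2afx, H2afz, H2afv, H2afy, H2afy2, H1f0, H1fx and Cenpa, listed by name as replication-independent histone genes and matched to the Ensembl identifiers of the count tables. Of these 10 genes, 9 had a row among the 22375 genes of the tables, and all 9 passed the filter on low counts that left 15758 genes for testing. H1f0, a linker histone gene, had no row under that symbol, and its expression was not analysed here.

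RNA was sequenced from mouse embryonic stem (ES) cells of strain 129/OLA in 4 groups with 2 biological replicates each. Wild-type (WT) cells were E14Tg2a, and Cfp1-null cells had the genotype Cfp1 -/-. Cells of each line were left untreated as control or given doxorubicin, a topoisomerase poison that breaks DNA, for 6 hours. The dose was 1 µM by the treatment protocol and the published methods, whereas the treatment label reads 1 mM. All groups grew on gelatin in medium with serum and LIF, and total RNA was depleted of ribosomal RNA. The labels name 1 cell line per genotype, so the lost gene and other differences between the lines cannot be told apart. Cfp1, encoded by Cxxc1, is a CpG-binding subunit of the Set1 complexes that trimethylate lysine 4 of histone H3 at active promoters.

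Canonical histones are made in bulk during S phase from clustered genes without introns, whose messages end in a stem-loop instead of a poly(A) tail. Replacement variants come mostly from solitary genes with polyadenylated messages. Dedicated chaperones or remodelling complexes place many of the proteins into nucleosomes at any stage of the cell cycle, and CENP-A after mitosis. H3.3 marks transcribed regions and telomeric repeats, H2A.Z flanks transcription starts, H2AX carries the phosphorylation that marks DNA breaks, macroH2A lies in repressed chromatin, and CENP-A defines centromeres.

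Total counts per biological replicate, summed over 2 technical sequencing runs, were 29422711 and 24158994 in untreated WT cells and 14880589 and 18551086 in treated WT cells. They were 23383421 and 25308913 in untreated Cfp1-null cells and 17866427 and 18458036 in treated Cfp1-null cells. In 6 of the 8 libraries the runs differed about as much as counting error gives, with a chi-squared per degree of freedom of 0.998 to 1.05. That value was 9.61 in replicate 1 of treated WT cells and 42.9 in replicate 1 of treated Cfp1-null cells. The second run held 36.7% of all counts in the former library, and 32.6% (H2afv) to 54.5% (H1fx) of the members' counts. In the latter it held 34.1% of all counts, and 32.0% (H2afv) to 45.9% (H1fx) of the members' counts. Where leaving these second runs out changed a call, the value without them stands beside the result.

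Cxxc1 (ENSMUSG00000024560, NCBIM37 chr18:74375785-74381145) had raw counts of 1412 and 1117 in untreated and 616 and 829 in treated WT cells. In Cfp1-null cells it had 4 and 3 counts untreated and 5 and 1 counts treated, at or near the floor of 3 counts. The targeted gene was thus counted in each WT library and was close to none in each Cfp1-null library. Of 6 genes known to be induced by p53 after DNA damage, 6 rose in WT cells, with a median log2 fold change of 2.15, and 6 rose in Cfp1-null cells, with a median of 1.75. Cdkn1a, which encodes the kinase inhibitor p21, rose by 3.33 log2 units in WT cells (SE 0.257, edgeR adjusted p = 1.30e-05). Mdm2, the ubiquitin ligase of p53, rose by 2.69 (SE 0.177, edgeR adjusted p = 6.10e-06).

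The label of ES cells was checked against 10 markers, none of which was at the floor in every library and of which Tdgf1, a Nodal co-receptor, was the most abundant. Their summed normalized counts were 103070.0 and 77736 in untreated WT, 39222 and 29576 in treated WT, 87370.0 and 83916 in untreated Cfp1-null and 36284 and 27002 in treated Cfp1-null cells. In each line 9 of the 10 fell after doxorubicin, and with total counts alone 5 fell in WT and 7 in Cfp1-null cells. Markers of fibroblasts or feeders (6 of 6 with a row, Col1a1 the most abundant, 1 at the floor) summed to 237 and 205 in untreated WT, 512 and 351 in treated WT, 62.1 and 60.8 in untreated Cfp1-null and 298 and 349 in treated Cfp1-null cells. Trophoblast markers (4 of 4, Krt8 the most abundant) summed to 1043 and 2611, 747 and 2252, 407 and 231, and 221 and 153 in the same order of groups. Neural markers (3 of 4, Nes the most abundant) summed to 3746 and 4682, 1992 and 4227, 2328 and 3169, and 1944 and 1833. Mesoderm markers (4 of 4, Kdr the most abundant) summed to 218 and 297, 110.0 and 130, 381 and 200, and 180 and 178. Of the 4 mesoderm markers, 2 fell and 2 rose in WT cells. Primitive endoderm markers (Dab2 the most abundant) summed to 133 and 208, 127 and 148, 376 and 166, and 238 and 128. Of the fibroblast markers, Col1a1 went from 90.9 and 55.25 to 365 and 201 normalized counts in WT cells after doxorubicin. Col3a1 went from 62.0 and 44.8 to 35.4 and 24.3. Of the 5 tested fibroblast markers, 2 rose in WT cells (median -0.18) and 2 in Cfp1-null cells (median 1.02). The part of these marker sums in the members' results was not tested. In bulk RNA, fewer cells of a type and less RNA per cell cannot be told apart.

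Divided by exon length, the members' levels in untreated WT cells spanned from far above to below the typical gene, with exon lengths from an earlier annotation release than that of the counts. H3f3b stood at 5298 ± 109 normalized counts per kb (SD, n = 2), H2afz at 4939 ± 975 and H2afx at 4150 ± 8.48, and in this order neither neighbouring pair differed beyond the sum of their SDs. H3f3a followed at 1056 ± 110.4, Cenpa at 711 ± 83.1, H2afv at 686 ± 134, H2afy at 306 ± 20.3, H2afy2 at 218 ± 2.83 and H1fx at 22.6 ± 4.22. Among these, only Cenpa and H2afv did not differ beyond their SDs. The median over all genes tested was 92.3 per kb, so 8 members lay above it and H1fx below it. In treated Cfp1-null cells H2afv at 1141 ± 38.6 per kb stood above H2afx at 610.4 ± 222 and H3f3a at 542 ± 15.1, the last of which did not differ from H2afx beyond their SDs.

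The response to doxorubicin in WT cells asks which variants change when DNA breaks are induced. Of the 9 members, 4 passed the test (edgeR quasi-likelihood, Benjamini-Hochberg adjusted p under 0.05), beside 48.3% of all genes tested. H2afx, H2afz and Cenpa fell, 3 of 9 beside 21.8% of all genes, and H3f3b rose, 1 of 9 beside 26.5%. A stricter rule, which in addition requires a 2.5-fold change and 200 normalized counts on average, left 1 of 9, H2afx, beside 7.91% of all genes. Without untreated WT replicate 2 the count was 2 of 9. Scaling by total counts alone shifted the all-gene median by 0.31 log2 units and gave 4 of 9, with H1fx in the place of H2afz.

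The same question in Cfp1-null cells gave 4 of 9 members, beside 48.8% of all genes. H2afx, H2afz and Cenpa fell, 3 of 9 beside 21.0%, and H2afy2 rose, 1 of 9 beside 27.8%. The stricter rule left 1 of 9, H2afx, beside 7.61%. The count was 1 without untreated Cfp1-null replicate 2, 2 without treated Cfp1-null replicate 1 and 1 without treated Cfp1-null replicate 2. It was 2 with total counts alone, which shifted the all-gene median by 0.21. Each fit without a library leaves a lone replicate in that group and assumes that it varies like the other groups. Whether loss of Cfp1 alters the response was asked of the difference between the lines, where edgeR called 0 of 9 members, beside 0.235% of all genes. In that test 2 members had an unadjusted p under 0.05, and DESeq2's Wald test called 0 and gave 2 with an unadjusted p under 0.05. With 2 libraries per group, a missed threshold does not show that the responses were equal.

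The comparisons of the lines ask what loss of Cfp1 does to the variants at rest and under damage. Without doxorubicin 5 of 9 members differed, beside 34.0% of all genes. H2afx, H3f3a and H2afy2 were lower in Cfp1-null cells, 3 of 9 beside 16.1%, and H2afv and H1fx were higher, 2 of 9 beside 17.9%. With doxorubicin 3 of 9 differed, beside 25.9%, and without treated Cfp1-null replicate 2 the count was 1. H2afx and H3f3a were lower, 2 of 9 beside 10.8%, and H2afv was higher, 1 of 9 beside 15.1%. By the stricter rule edgeR called 0 of 9 without doxorubicin, beside 3.33%, and 0 of 9 with it, beside 2.61%, and both counts were also 0 at an unadjusted p under 0.05 and in DESeq2. Total counts alone shifted the all-gene medians by 0.19 without and by 0.09 with doxorubicin. The comparisons share groups of libraries with each other.

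**Figure D1:**
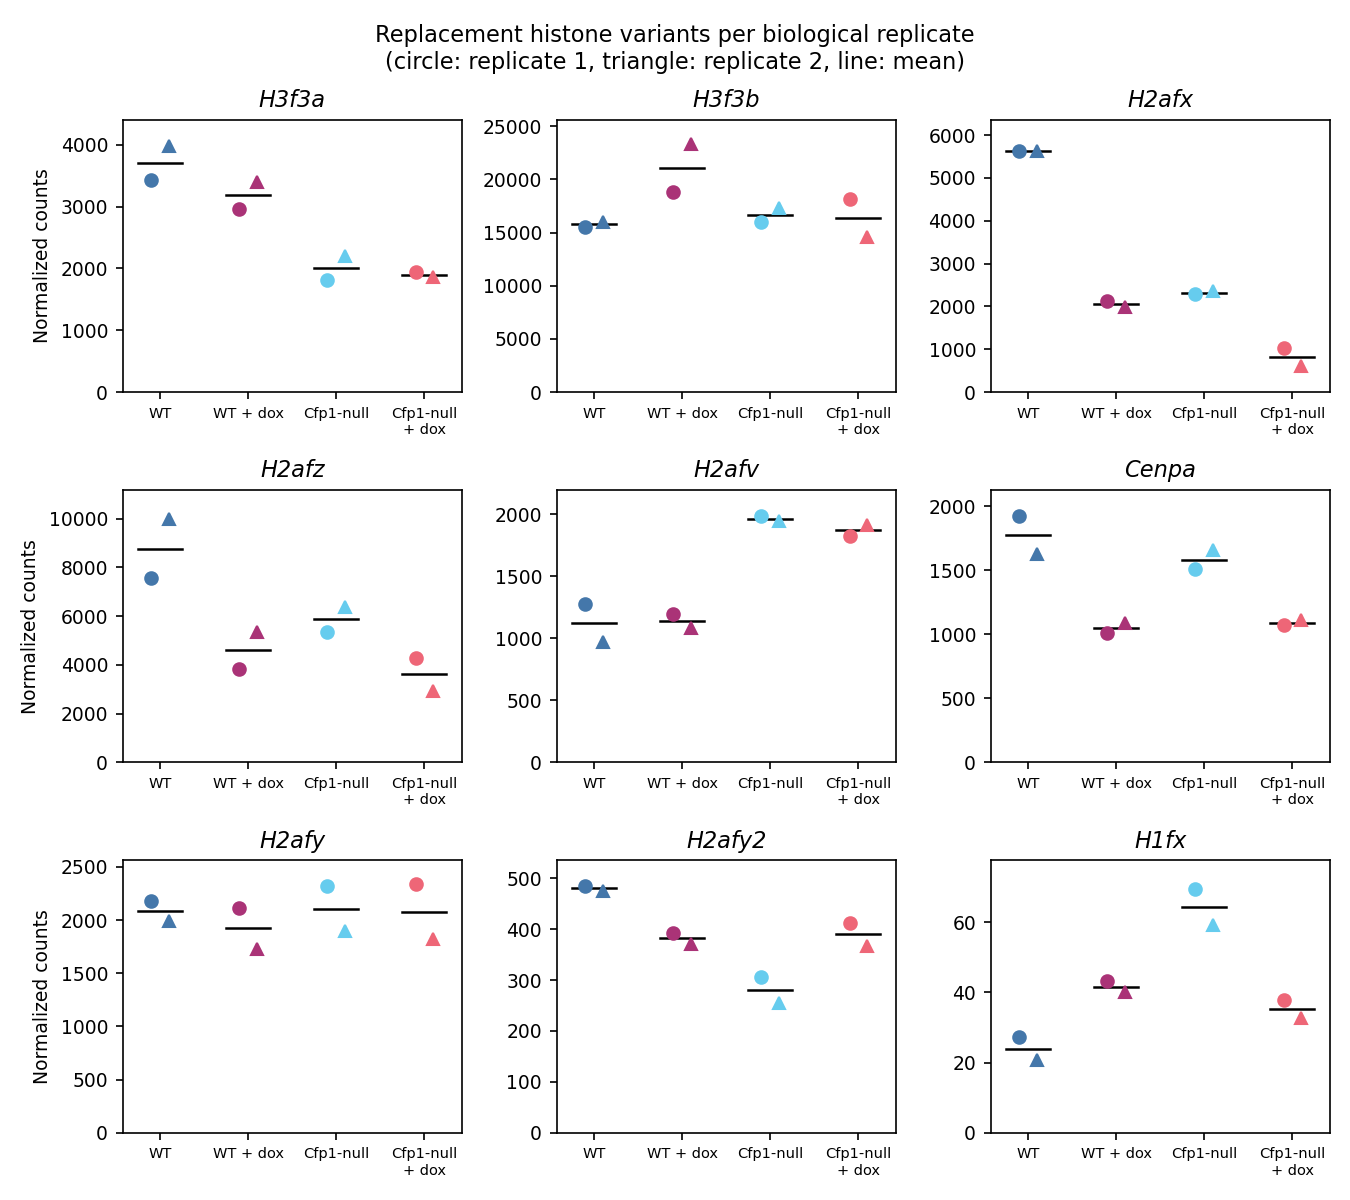
Normalized counts (vertical axes, from 0) of the 9 replacement variants with a row in untreated and doxorubicin-treated (dox) WT and Cfp1-null ES cells. Each point is a biological replicate (circle 1, triangle 2) and each line the mean of n = 2. H2afx falls from 5639 and 5623 in untreated WT cells to 615 and 1042 in treated Cfp1-null cells, whereas the groups of H2afy overlap.

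H2afx encodes H2AX, the variant whose tail is phosphorylated by ATM, ATR and DNA-PK around DNA breaks. H2afx (ENSMUSG00000049932, NCBIM37 chr9:44142798-44144154) had 5639 and 5623 normalized counts in untreated WT, 2123 and 1976 in treated WT, 2282 and 2354 in untreated Cfp1-null and 1042 and 615 in treated Cfp1-null cells. Both treated libraries lay below both untreated ones in each line, both Cfp1-null libraries lay below both WT ones with and without drug, and untreated Cfp1-null cells lay above treated WT cells by a small margin. Its log2 fold change after doxorubicin was -1.41 in WT cells (SE 0.209, edgeR adjusted p = 0.000478) and -1.44 in Cfp1-null cells (SE 0.212, edgeR adjusted p = 0.000479), which is 2.66-fold and 2.71-fold lower. Cfp1-null cells had -1.25 against WT without doxorubicin (SE 0.208, edgeR adjusted p = 0.00207) and -1.28 with it (SE 0.211, edgeR adjusted p = 0.00303). The difference between the responses was -0.03 (SE 0.292, edgeR adjusted p = 0.989), from -0.47 to 0.31 with any single library left out. H2afx passed in these 4 comparisons with each other scaling, tool, filter and design, and its values with total counts alone were -1.10, -1.23, -1.06 and -1.19 in the same order. It also passed with any single library left out, with values from -1.47 to -1.37 in the WT response, -1.89 to -1.11 in the Cfp1-null response, -1.27 to -1.21 between untreated lines and -1.73 to -0.94 between treated lines.

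H2afx was also the member that shares a feature of its message with the replication-dependent genes, a search chosen after its values were seen. The histone 3′ stem-loop, searched by its base pairs within 150 bases after the stop codon of the annotated transcripts, was found in 1 of 9 members, in 60 of 66 replication-dependent histone genes (90.9%) and in 60 of the 15676 tested genes with an annotated stop codon (0.383%). The H2afx copy is shown because it is the only one among the members. It lies 47 bases after the stop codon at NCBIM37 chr9:44143323-44143338 on the plus strand, with the paired stem in capitals:
H2afx stem-loop: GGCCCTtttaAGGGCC

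Counts of called genes in a list compare with those over all 15758 genes, of which 3433 fell and 4174 rose in the WT response (21.8% and 26.5%) and 3306 fell and 4386 rose in the Cfp1-null response (21.0% and 27.8%). Between untreated lines 2537 were lower and 2825 higher (16.1% and 17.9%), and between treated lines 1700 and 2374 (10.8% and 15.1%). Total counts alone made these 1836 and 5731, 2057 and 5271, 1610 and 3849, and 1255 and 2824, with all-gene medians of 0.37, 0.23, 0.20 and 0.11, so a list's values under that scaling move together with those of all genes.

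A list of 14 genes holds kinases and phosphatases of H2AX, proteins that act at the marked breaks, and Wdr5, which is none of these. Of the 14, 8 fell and 1 rose in WT cells after doxorubicin, with a median log2 fold change of -0.45 beside 0.06 over all genes tested. In Cfp1-null cells 6 fell and 2 rose, with a median of -0.22 beside 0.01. With total counts alone 4 fell and 2 rose in each line. In WT cells the damage kinase Atr fell by 0.73 (SE 0.139, edgeR adjusted p = 0.00198). Of the phosphatases, Eya1 fell by 2.07 (SE 0.248, edgeR adjusted p = 0.000138), and Eya2, with 0.849 and 9.38 normalized counts untreated and 17.0 and 24.3 treated, rose by 2.13 (SE 0.732, edgeR adjusted p = 0.0361). Between untreated lines 4 were lower and 1 was higher in Cfp1-null cells, with a median of -0.07 beside 0.01, and with total counts alone 4 were lower and 4 higher, with a median of 0.12. Trp53bp1, which binds chromatin at breaks, stood at -0.84 (SE 0.130, edgeR adjusted p = 0.00143) and Rnf168, the ubiquitin ligase that recruits it, at -0.62 (SE 0.126, edgeR adjusted p = 0.00511). Between treated lines 3 were lower and 1 was higher, with a median of -0.03, and with total counts alone 2 were lower and 1 higher, with a median of 0.06.

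H2afz and H2afv encode the 2 H2A.Z proteins. H2afz (ENSMUSG00000037894, NCBIM37 chr3:137527451-137529886) had 7548 and 9997 normalized counts in untreated WT, 3818 and 5369 in treated WT, 5346 and 6386 in untreated Cfp1-null and 4297 and 2934 in treated Cfp1-null cells. Treated libraries lay below untreated ones in each line, and the treated groups of the 2 lines overlapped. H2afz fell by 0.89 log2 units in WT cells (SE 0.230, edgeR adjusted p = 0.0104) and fell by 0.65 in Cfp1-null cells (SE 0.230, edgeR adjusted p = 0.0389). The call in WT cells was lost with total counts alone (-0.57, edgeR adjusted p = 0.0576), without untreated WT replicate 2 (-0.69, edgeR adjusted p = 0.0637) and without treated WT replicate 1 (-0.67, edgeR adjusted p = 0.0700). The call in Cfp1-null cells was lost with total counts alone (-0.44, edgeR adjusted p = 0.131), without untreated Cfp1-null replicate 1 (-0.79, edgeR adjusted p = 0.0535) or 2 (-0.54, edgeR adjusted p = 0.172) and without treated Cfp1-null replicate 2 (-0.40, edgeR adjusted p = 0.254). Between untreated lines H2afz stood at -0.55 in Cfp1-null cells (SE 0.229, edgeR adjusted p = 0.0887), and it passed with the replicate number as a block (-0.55, edgeR adjusted p = 0.0423), in DESeq2 (-0.58, adjusted p = 0.0499), with no filter (-0.56, edgeR adjusted p = 0.0394) and with the 2 groups alone in the fit (-0.53, edgeR adjusted p = 0.0487). With total counts alone the value between untreated lines was -0.36 (edgeR adjusted p = 0.235), and it ranged from -0.73 to -0.34 with any single library left out. Between treated lines H2afz stood at -0.32 (SE 0.229, edgeR adjusted p = 0.332).

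H2afv (ENSMUSG00000041126, NCBIM37 chr11:6327229-6344446) had 1279 and 969 normalized counts in untreated WT, 1196 and 1086 in treated WT, 1981 and 1945 in untreated Cfp1-null and 1826 and 1915 in treated Cfp1-null cells. All 4 Cfp1-null libraries lay above all 4 WT libraries, and the WT groups overlapped. H2afv was higher in Cfp1-null cells by 0.83 without doxorubicin (SE 0.154, edgeR adjusted p = 0.00336) and by 0.74 with it (SE 0.154, edgeR adjusted p = 0.00847). The second call was lost without treated WT replicate 2 (0.67, edgeR adjusted p = 0.0542) and without treated Cfp1-null replicate 2 (0.71, edgeR adjusted p = 0.0517). Its log2 fold change after doxorubicin was 0.07 in WT (SE 0.154, edgeR adjusted p = 0.750) and -0.03 in Cfp1-null cells (SE 0.152, edgeR adjusted p = 0.899). With total counts alone these values were 0.38 (edgeR adjusted p = 0.0700) and 0.19 (edgeR adjusted p = 0.350). H2afv thus held 14.5% and 8.84% of the H2A.Z counts in untreated WT, 23.9% and 16.8% in treated WT, 27.0% and 23.3% in untreated Cfp1-null and 29.8% and 39.5% in treated Cfp1-null libraries. Its share was lowest in untreated WT libraries and highest in treated Cfp1-null libraries, without overlap between those groups, and the smallest p that an exact permutation test of 2 against 2 libraries allows is 0.333.

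The list for H2A.Z exchange, with 16 tested identifiers, holds subunits of the SRCAP, p400-Tip60 and INO80 complexes, the chaperone Anp32e and Acbd3, a Golgi protein gene that is neither. In WT cells 7 fell and 1 rose after doxorubicin, with a median of -0.52 beside 0.06 over all genes, and in Cfp1-null cells 7 fell, with a median of -0.46 beside 0.01. With total counts alone 4 fell and 1 rose in WT cells and 5 fell in Cfp1-null cells. Ino80, the ATPase of its complex, fell by 1.23 in WT cells (SE 0.135, edgeR adjusted p = 8.14e-05), Brd8 of the p400-Tip60 complex fell by 1.15 (SE 0.116, edgeR adjusted p = 5.35e-05) and Anp32e, which removes H2A.Z, fell by 1.00 (SE 0.126, edgeR adjusted p = 0.000188). Between untreated lines 3 were lower and 1 was higher in Cfp1-null cells, with a median of -0.02, beside 0.01 over all genes, and with total counts alone 4 were higher and none lower, with a median of 0.17 beside 0.20 over all genes. Acbd3 was among the 3 lower ones, at -0.45 (SE 0.157, edgeR adjusted p = 0.0498). The partner ATPases Ruvbl1 and Ruvbl2 differed in opposite directions there, Ruvbl1 at -0.56 (SE 0.136, edgeR adjusted p = 0.0113) and Ruvbl2 at 0.49 (SE 0.138, edgeR adjusted p = 0.0215). With the replicate number as a block 8 of the 16 passed between untreated lines and 4 between treated lines, where 1 had passed, higher in Cfp1-null cells.

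Cenpa encodes CENP-A, the H3 variant that specifies the centromere and is loaded after mitosis. Cenpa (ENSMUSG00000029177, NCBIM37 chr5:30969150-30977200) had 1926 and 1631 normalized counts in untreated WT, 1009 and 1091 in treated WT, 1509 and 1659 in untreated Cfp1-null and 1076 and 1109.6 in treated Cfp1-null cells. Treated libraries lay below untreated ones in each line, and the lines overlapped with and without drug. Cenpa fell by 0.71 log2 units in WT cells (SE 0.138, edgeR adjusted p = 0.00220) and fell by 0.49 in Cfp1-null cells (SE 0.137, edgeR adjusted p = 0.0145). With total counts alone the value in WT cells was -0.40 (edgeR adjusted p = 0.0395). The call in Cfp1-null cells was lost with total counts alone (-0.28, edgeR adjusted p = 0.135), without untreated Cfp1-null replicate 2 (-0.44, edgeR adjusted p = 0.0799) and without treated Cfp1-null replicate 1 (-0.49, edgeR adjusted p = 0.0614) or 2 (-0.51, edgeR adjusted p = 0.0616). Cfp1-null against WT was -0.14 without doxorubicin (SE 0.136, edgeR adjusted p = 0.456), 0.05 with total counts alone, and 0.08 with doxorubicin (SE 0.138, edgeR adjusted p = 0.689).

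Of 18 tested genes for CENP-A loading and the inner kinetochore, 10 fell and 3 rose in WT cells after doxorubicin, with a median of -0.49 beside 0.06. In Cfp1-null cells 11 fell and 1 rose, with a median of -0.52 beside 0.01. With total counts alone 3 fell and 3 rose in WT cells, and 6 fell and 2 rose in Cfp1-null cells. In WT cells Oip5, which takes part in licensing the centromere for loading, fell by 1.52 (SE 0.181, edgeR adjusted p = 0.000133). Cenpt, which links centromeric DNA to the outer kinetochore, rose by 1.38 (SE 0.174, edgeR adjusted p = 0.000184). Between untreated lines 5 were lower and 2 were higher in Cfp1-null cells, with a median of -0.25, and between treated lines 8 were lower, with a median of -0.41. Under total counts 3 were lower and 2 higher between untreated lines, and 5 were lower between treated lines. Rbbp7, a histone-binding subunit of several chromatin complexes, stood at -0.72 between untreated lines (SE 0.177, edgeR adjusted p = 0.0120). Mis18a and Cenpu had no row and were not analysed here.

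**Figure D2:**
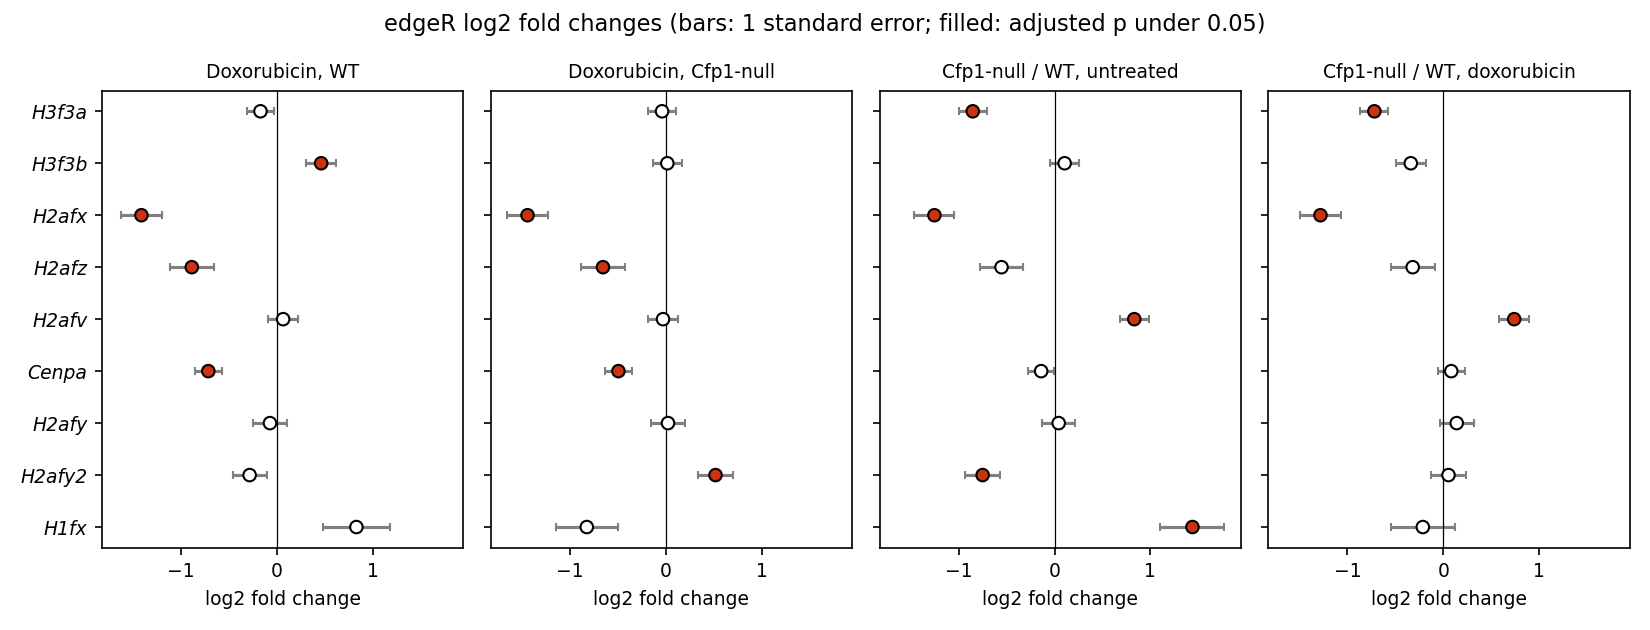
edgeR log2 fold changes (horizontal axes) of the 9 replacement variants in 4 comparisons, with bars of 1 standard error from 2 against 2 biological replicates and filled points for an adjusted p under 0.05. H2afx is filled and below 0 in each panel, from -1.25 to -1.44, and H2afv is filled at 0.83 and 0.74 in the comparisons of the lines.

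H3f3a and H3f3b encode the same protein, H3.3, through different coding sequences. H3f3a (ENSMUSG00000060743, NCBIM37 chr1:182730963-182744074) had 3426 and 3973 normalized counts in untreated WT, 2964 and 3400.0 in treated WT, 1811 and 2208 in untreated Cfp1-null and 1937 and 1862 in treated Cfp1-null cells. All 4 Cfp1-null libraries lay below all 4 WT libraries, and the treated and untreated Cfp1-null groups overlapped. H3f3a was lower in Cfp1-null cells, at -0.85 without doxorubicin (SE 0.145, edgeR adjusted p = 0.00229) and -0.72 with it (SE 0.145, edgeR adjusted p = 0.00727). The call with doxorubicin was lost without treated Cfp1-null replicate 2 (-0.68, edgeR adjusted p = 0.0547). After doxorubicin its log2 fold change was -0.17 in WT cells (SE 0.144, edgeR adjusted p = 0.355), 0.14 with total counts alone, and -0.04 in Cfp1-null cells (SE 0.144, edgeR adjusted p = 0.850).

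H3f3b (ENSMUSG00000016559, NCBIM37 chr11:115883226-115889276) had 15537 and 15994 normalized counts in untreated WT, 18788 and 23286 in treated WT, 15959 and 17310.4 in untreated Cfp1-null and 18117 and 14552 in treated Cfp1-null cells. Treated WT libraries were the highest of all 8, and the other 3 groups overlapped. H3f3b rose by 0.46 in WT cells (SE 0.154, edgeR adjusted p = 0.0318). That call was lost without untreated WT replicate 1 (0.44, edgeR adjusted p = 0.127) or 2 (0.47, edgeR adjusted p = 0.107) and without treated WT replicate 2 (0.29, edgeR adjusted p = 0.212). With total counts alone the value in WT cells was 0.78 (edgeR adjusted p = 0.00205). In Cfp1-null cells the log2 fold change of H3f3b was 0.02 (SE 0.154, edgeR adjusted p = 0.937), and the difference between the responses was -0.45 (SE 0.217, edgeR adjusted p = 0.514). That difference was -0.55 with total counts alone (unadjusted p = 0.0261, edgeR adjusted p = 0.371). Between untreated lines H3f3b stood at 0.11 (SE 0.154, edgeR adjusted p = 0.622). Between treated lines it stood at -0.34 (SE 0.154, edgeR adjusted p = 0.132), and it passed without the second run of treated Cfp1-null library 1 (-0.44, edgeR adjusted p = 0.0349). The value was -0.25 with total counts alone (edgeR adjusted p = 0.241), and ranged from -0.52 to -0.18 with any single library left out. H3f3a held 18.1% and 19.9% of the H3.3 counts in untreated WT, 13.6% and 12.7% in treated WT, 10.2% and 11.3% in untreated Cfp1-null and 9.66% and 11.3% in treated Cfp1-null libraries. The share was highest in untreated WT libraries, lower in treated WT libraries and lowest in the Cfp1-null libraries, where both groups overlapped.

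Of 11 genes for H3.3 deposition, 5 fell in WT cells after doxorubicin, with a median of -0.33 beside 0.06, and 7 fell in Cfp1-null cells, with a median of -0.54 beside 0.01. With total counts alone 5 fell and 2 rose in WT cells and 6 fell in Cfp1-null cells. Asf1a, a chaperone that hands H3-H4 to the depositing complexes, fell by 1.59 in WT cells (SE 0.167, edgeR adjusted p = 6.29e-05), Chd1, a remodeller of transcribed chromatin, fell by 1.24 (SE 0.127, edgeR adjusted p = 5.47e-05) and Atrx, which places H3.3 at telomeres and repeats, fell by 0.85 (SE 0.169, edgeR adjusted p = 0.00261). Between untreated lines 4 were lower and 1 was higher in Cfp1-null cells, with a median of -0.28, and with total counts alone 2 were lower and 1 was higher. Cabin1, a subunit of the HIRA complex, was the higher one at 1.23 (SE 0.129, edgeR adjusted p = 0.000229), and Ubn1 of the same complex was lower at -0.47 (SE 0.138, edgeR adjusted p = 0.0271). Between treated lines 3 were lower and 2 were higher, with a median of -0.32.

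H2afy and H2afy2 encode macroH2A histones, which carry a large non-histone domain. H2afy (ENSMUSG00000015937, NCBIM37 chr13:56174980-56237722) had between 1732 and 2343 normalized counts over the 8 libraries, and its groups overlapped in all 4 comparisons. Its log2 fold change was -0.07 in the WT response, 0.24 with total counts alone, 0.02 in the Cfp1-null response, 0.04 between untreated and 0.14 between treated lines, and it passed in none of these. H2afy2 (ENSMUSG00000020086, NCBIM37 chr10:61201391-61246895) had 484 and 475 normalized counts in untreated WT, 393 and 371 in treated WT, 305 and 254 in untreated Cfp1-null and 412 and 367 in treated Cfp1-null cells. Untreated WT libraries were the highest and untreated Cfp1-null libraries the lowest, and the treated groups of both lines overlapped between them.

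H2afy2 was lower in untreated Cfp1-null than in untreated WT cells, at -0.75 (SE 0.179, edgeR adjusted p = 0.0109), a call lost without untreated Cfp1-null replicate 2 (-0.62, edgeR adjusted p = 0.0757). It rose in Cfp1-null cells after doxorubicin by 0.52 (SE 0.180, edgeR adjusted p = 0.0364). That call was lost without untreated Cfp1-null replicate 2 (0.38, edgeR adjusted p = 0.212), treated Cfp1-null replicate 1 (0.41, edgeR adjusted p = 0.181) or 2 (0.60, edgeR adjusted p = 0.0699) and untreated WT replicate 1 (0.47, edgeR adjusted p = 0.0686) or 2 (0.47, edgeR adjusted p = 0.0687). It was also lost in DESeq2 (0.48, adjusted p = 0.0543), with no filter (0.51, edgeR adjusted p = 0.0598) and without the second run of treated Cfp1-null library 1 (0.45, edgeR adjusted p = 0.0515). In WT cells the value was -0.28 (SE 0.178, edgeR adjusted p = 0.218), 0.03 with total counts alone. The difference between the responses was 0.80 (SE 0.253, unadjusted p = 0.0104, edgeR adjusted p = 0.301). Between treated lines H2afy2 stood at 0.05 (SE 0.179, edgeR adjusted p = 0.852).

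H1fx encodes a linker histone of the H1.X type, and was the member with the fewest counts. H1fx (ENSMUSG00000044927, NCBIM37 chr6:87930416-87931476) had 27.2 and 20.8 normalized counts in untreated WT, 43.2 and 40.1 in treated WT, 69.5 and 59.2 in untreated Cfp1-null and 37.8 and 32.8 in treated Cfp1-null cells. Untreated WT libraries were the lowest and untreated Cfp1-null libraries the highest, without overlap with any other group. H1fx was higher in untreated Cfp1-null than in untreated WT cells by 1.44 (SE 0.334, edgeR adjusted p = 0.00956), a call lost without untreated WT replicate 2 (1.26, edgeR adjusted p = 0.0616) and without untreated Cfp1-null replicate 1 (1.34, edgeR adjusted p = 0.0571). After doxorubicin its value was 0.83 in WT cells (SE 0.345, edgeR adjusted p = 0.0723), where it passed with total counts alone (1.14, edgeR adjusted p = 0.0215). In Cfp1-null cells it was -0.82 (SE 0.325, edgeR adjusted p = 0.0600) and passed with the replicate number as a block (-0.82, edgeR adjusted p = 0.0390), with DESeq2's size factors (-0.86, edgeR adjusted p = 0.0499), without the second run of treated Cfp1-null library 1 (-0.96, edgeR adjusted p = 0.0342) and without the second runs of both treated libraries 1 (-0.96, edgeR adjusted p = 0.0378). The difference between the responses was -1.65 (SE 0.474, unadjusted p = 0.00619, edgeR adjusted p = 0.257), and between treated lines H1fx stood at -0.21 (SE 0.336, edgeR adjusted p = 0.671). An overlapping gene on the opposite strand, Gm5577, stood at -1.37 in the WT response (SE 0.381, edgeR adjusted p = 0.0145) and -0.52 in the Cfp1-null response (SE 0.379, edgeR adjusted p = 0.281).

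Summed, the 9 members made up 1778 and 1898 CPM (summed counts over TMM-scaled library size) in untreated WT, 1564 and 1848 in treated WT, 1513 and 1613 in untreated Cfp1-null and 1532 and 1230.2 in treated Cfp1-null libraries. The sums of the replication-dependent histone genes, the family most like the members, were 7618 and 7818, 2091 and 2577, 4024 and 4826, and 1477 and 1569.7 in the same order of groups. The members' sums overlapped between treated and untreated cells in each line, whereas the replication-dependent sums did not, and were highest in untreated WT cells. H3f3b was a large part of the members' sums, with 18291 and 15343 of 44795 and 39016 raw counts in untreated WT libraries. It had 14343 and 22046 of 24772 and 36309 in treated WT libraries. In Cfp1-null libraries it had 17214 and 20483 of 34062 and 40319 untreated, and 17740 and 15095 of 30441 and 26148 treated. H2afx, H2afz and Cenpa were called lower in both responses, so the sums do not describe each member. With total counts alone the members' sums in WT cells no longer overlapped, at 1522 and 1615 untreated and 1665 and 1957 treated. Against untreated WT cells the members' mean sums stood at -0.11 log2 units in treated WT (0.21 with total counts alone), -0.23 in untreated Cfp1-null (-0.04) and -0.41 in treated Cfp1-null cells (-0.01). The ratio of the members' counts to the replication-dependent counts was 0.233 and 0.243 in untreated WT, 0.748 and 0.717 in treated WT, 0.376 and 0.334 in untreated Cfp1-null and 1.04 and 0.784 in treated Cfp1-null libraries. Within each line the treated libraries had the higher ratio, and within each treatment the Cfp1-null libraries did. Depletion of ribosomal RNA does not select for a poly(A) tail, and both families were counted in the same libraries.

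**Figure D3:**
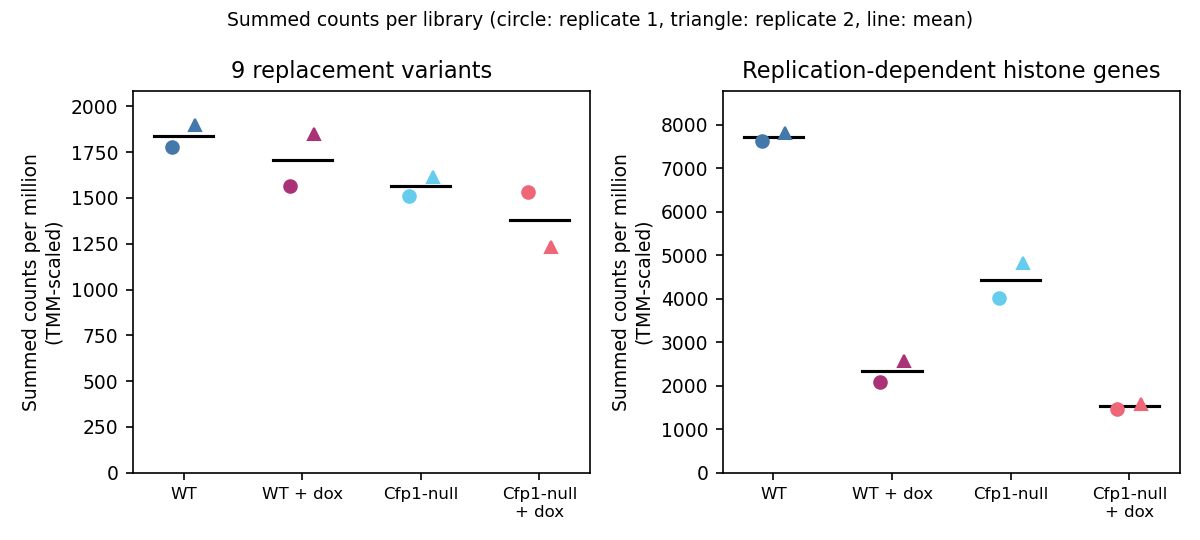
Summed CPM (TMM-scaled, vertical axes from 0) of the 9 replacement variants and of the replication-dependent histone genes, with circles for replicate 1, triangles for replicate 2 and lines for the mean of n = 2. The members' sums lie between 1230.2 and 1898, and the replication-dependent sums between 1477 and 7818, highest in untreated WT cells.

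Of 65 tested replication-dependent histone genes, 58 fell in WT cells after doxorubicin, with a median log2 fold change of -1.71 beside 0.06 over all genes, and 57 fell in Cfp1-null cells, with a median of -1.62 beside 0.01. With total counts alone 55 and 54 fell. In WT cells the linker genes Hist1h1d and Hist1h1c stood at -2.61 (SE 0.129, edgeR adjusted p = 1.88e-06) and -2.33 (SE 0.120, edgeR adjusted p = 2.28e-06). Between untreated lines 35 were lower and 3 were higher in Cfp1-null cells, with a median of -0.64, and between treated lines 25 were lower and 4 were higher, with a median of -0.58. Under total counts these were 22 lower and 3 higher (median -0.45) and 18 lower and 5 higher (median -0.48). Among the 9 members, only H2afx was called lower in all 4 comparisons, which share groups of libraries. The share of all genes called lower in all 4 was not counted, so this is a description of H2afx alone. Of 7 tested genes for other variants, a list that shares Hist1h1t, Hist3h2a and other symbols with the replication-dependent list, 3 fell in WT cells (median -1.02), and 1 fell and 2 rose in Cfp1-null cells (median -1.19). Between untreated lines 4 of these 7 were lower (median -1.19) and between treated lines 1 was lower (median -0.94). Scaled by total counts, 2 of them fell and 1 rose in WT cells, the lower calls in the Cfp1-null response and between treated lines were lost, and 1 was lower between untreated lines.

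A list of 10 tested genes holds processing factors of replication-dependent histone messages, together with Npat and E2f1, which act on transcription. It gave 6 lower and 2 higher in WT cells after doxorubicin, with a median of -0.47. In Cfp1-null cells they gave 6 lower and 1 higher, with a median of -0.39. Scaled by total counts, 2 were lower and 2 higher in WT cells (median -0.16), 3 lower and 2 higher in Cfp1-null cells and 1 lower and 1 higher between untreated lines. In WT cells Slbp, which binds the histone stem-loop, fell by 0.75 (SE 0.143, edgeR adjusted p = 0.00209), and Npat, the activator of clustered histone genes, fell by 0.77 (SE 0.128, edgeR adjusted p = 0.000949). E2f1, a transcription factor of S phase genes, rose by 1.71 (SE 0.286, edgeR adjusted p = 0.000951), and Sympk, a scaffold of the cleavage complex, rose by 0.73 (SE 0.119, edgeR adjusted p = 0.000848). Between untreated lines Slbp was lower in Cfp1-null cells, at -0.82 (SE 0.143, edgeR adjusted p = 0.00259), and 3 of 10 in all were lower and 1 was higher, Sympk at 1.13 (SE 0.119, edgeR adjusted p = 0.000235), with a median of -0.20. Between treated lines 2 were lower and 1 was higher, with a median of -0.25, and 5 passed with the replicate number as a block. Of 14 general histone chaperone genes, 8 fell in WT cells (median -0.50) and 7 in Cfp1-null cells (median -0.35), and 7 were lower and 1 higher between untreated lines (median -0.50). Between treated lines 6 were lower and 1 was higher, with a median of -0.62. For the chaperones, total counts alone gave 3 lower and 1 higher in WT cells, 3 lower in Cfp1-null cells, 4 lower and 3 higher between untreated lines and 6 lower and 2 higher between treated lines. In WT cells Nasp, which stores soluble H3-H4, fell by 0.92 (SE 0.125, edgeR adjusted p = 0.000290), and Npm1, a nucleolar chaperone, stood at -1.09 between untreated lines (SE 0.170, edgeR adjusted p = 0.00150).

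S phase and mitosis genes were counted because the replication-dependent family follows the cell cycle. Of 22 S phase genes, 13 fell and 1 rose in WT cells (median -0.45) and 15 fell and 1 rose in Cfp1-null cells (median -0.50) after doxorubicin, and with total counts alone 1 fell and 2 rose in WT cells and 9 fell and 2 rose in Cfp1-null cells. Between untreated lines 13 were lower in Cfp1-null cells (median -0.48), and between treated lines 13 (median -0.62), against 6 lower and 1 higher and 11 lower and 1 higher with total counts alone. Of 17 mitosis genes, 14 fell in WT cells (median -0.89) and 16 in Cfp1-null cells (median -0.87). With total counts alone 14 still fell in WT cells (median -0.58) and 14 in Cfp1-null cells (median -0.66). Between untreated lines 7 were lower and 2 were higher, with a median of -0.19, against 3 lower and 2 higher and a median of 0.00 with total counts alone, and between treated lines 6 were lower (median -0.27). Ccne1, the cyclin of S phase entry, fell by 1.52 in WT cells (SE 0.149, edgeR adjusted p = 4.22e-05) and the mitotic kinase Plk1 fell by 1.86 (SE 0.205, edgeR adjusted p = 8.62e-05). With TMM scaling the medians of these lists moved with H2afx, H2afz and Cenpa in both responses, and their part in those results was not tested.

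For each list gene given with a fold change, both libraries of a group lay on the same side of both libraries of the other group. For the difference between the responses, edgeR called 0 genes in each of these lists. At an unadjusted p under 0.05 it gave 1 of 11 genes for H3.3 deposition, 1 of 16 for H2A.Z exchange, 3 of 18 for CENP-A loading and the inner kinetochore, 5 of 14 for H2AX phosphorylation and its readers and 5 of 65 replication-dependent genes. It gave 1 of 14 chaperone genes, 1 of 10 genes in the processing list, 1 of 22 S phase genes, 2 of 17 mitosis genes, 2 of 6 p53-induced genes and 0 of 7 other variants. DESeq2 called 1 gene each for CENP-A loading, the replication-dependent family and the p53-induced genes, and 0 in the other lists of this kind. Of the marker genes, edgeR gave an unadjusted p under 0.05 for 2 of 10 for ES cells, 2 of 5 for fibroblasts, 1 of 5 for primitive endoderm and 1 of 4 for mesoderm, and DESeq2 called 1 each for ES cells, fibroblasts and mesoderm. Over all genes, 37 passed in edgeR, 1671 had an unadjusted p under 0.05, and DESeq2 called 216.

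The members' sequences bear on how well short reads tell them apart. Of all windows of 75 bases, the read length, in the longest coding transcript of H2afz, 79.3% (789 of 995) had an identical copy elsewhere in NCBIM37. The nearest copy, at chr6:116123650-116124515, matched 865 of 866 bases. H3f3a had 29.2% of its windows copied (807 of 2767, nearest copy at chr13:101715850-101716884), and H3f3b 18.2% (444 of 2440, nearest copy at chr1:180229443-180230501). H2afx had 3.35% (43 of 1283), shared with 13 replication-dependent H2A genes, and H2afy2 had 1.57% (33 of 2101). H2afv, H2afy, H1fx and Cenpa had no such window. The effect of such copies on the levels of H2afz, H3f3a and H3f3b relative to the other members was not tested.

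The paired genes differed along their coding sequences. The coding sequences of H3f3a and H3f3b were identical at 76.9% of 411 bases, with 23 bases as the longest shared run. H2afz and H2afv were identical at 79.1% of 387 bases, with a longest run of 14, and H2afy and H2afy2 at 67.3% of 1119 bases, with a longest run of 16. Against 10 replication-dependent H3 genes H3f3a was identical at 77.1% to 78.1% of bases and H3f3b at 80.5% to 81.8%. No shared run within these pairs or with the replication-dependent H3 genes thus reached the read length.

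Promoters of 300 bases, 250 before and 50 after the start, were taken from RefSeq (GRCm38.p6) and matched 9 of the 10 members, H1f0 among them. H2afx was not matched. Each was searched on both strands for 5 short motifs. The CCAAT box occurred in H3f3b (4 copies), H2afv (4), H2afz (3), Cenpa (2), H3f3a (1) and H2afy2 (1), against 37.4% of 32851 promoters. The TATA box (TATAAA) occurred in H3f3b (1), against 13.6%. The GC box (GGGCGG) occurred in 7 members, up to 6 copies in H3f3a, against 35.7%. The cell-cycle element TTTGAA occurred in H2afv and Cenpa, against 17.9%, and its other form TTCGAA in none of the 9, against 1.56%. CG dinucleotides numbered from 10 (Cenpa) to 40 (H1fx), beside a median of 7 over all promoters. A match describes letters in this window and is not a binding site.

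The 150 bases before the start are shown for H2afz and Cenpa, which fell together in both lines, and for H3f3b, which rose in WT cells, with copies of the searched motifs on either strand in capitals. The start is that of RefSeq. The 300-base promoters were found unaltered in NCBIM37, which gave chr3:137527301-137527450 on the plus strand for H2afz, chr5:30969109-30969258 on the plus strand for Cenpa and chr11:115885819-115885968 on the minus strand for H3f3b. The H3f3b stretch lies inside the Ensembl gene and the Cenpa stretch runs into its start.
H2afz promoter: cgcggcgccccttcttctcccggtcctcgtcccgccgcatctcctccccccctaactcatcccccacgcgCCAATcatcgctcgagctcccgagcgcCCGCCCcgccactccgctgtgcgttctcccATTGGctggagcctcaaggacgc
Cenpa promoter: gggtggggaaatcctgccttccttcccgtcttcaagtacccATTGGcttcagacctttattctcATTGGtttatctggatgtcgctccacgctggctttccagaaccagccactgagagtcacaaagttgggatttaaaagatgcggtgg
H3f3b promoter: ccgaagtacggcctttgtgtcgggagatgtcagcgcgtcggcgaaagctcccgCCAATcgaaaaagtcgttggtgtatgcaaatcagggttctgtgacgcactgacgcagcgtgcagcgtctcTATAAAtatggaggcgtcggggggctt
The H2afz and Cenpa stretches share CCAAT boxes in reverse orientation (ATTGG), which the H2afv and H3f3a stretches also hold, and the H3f3b stretch holds a CCAAT box and the TATA box.

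Among genes averaging 200 normalized counts or more, the one most like each member over the 8 libraries was named by Pearson's r of log2 normalized counts, as a description over libraries that share groups and lines. H2afx was most like Zfp280d (r = 0.993), Axin1 (0.992) and Atp6v1b2 (0.991), and H3f3a most like Rpl8 (0.995), Rpl15 (0.994) and Rpl7 (0.994), which encode ribosomal proteins. H2afv was most like Tmco6 (0.997), Cenpa most like Mrps22 (0.996), H2afz most like Psmd14 (0.985) and H2afy2 most like Ric8b (0.972). H1fx was most like Hsf1 (0.963), H3f3b most like Arf2 (0.943) and H2afy most like Tnrc18 (0.926). Between members the highest r was that of H2afx with H2afz (0.908) and the lowest that of H3f3a with H2afv (-0.961).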

How the data were processed

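The 10 members and the gene lists were chosen with earlier results of these data known. Gene counts of 16 sequencing runs were deposited as raw values, which the authors made from paired-end 75-base strand-specific reads of rRNA-depleted RNA with STAR (2.2.1 per the labels) on NCBIM37 and HTSeq. The deposited normalized signal per gene is the count summed over 2 technical runs and divided by 1 DESeq size factor per biological replicate, and this signal is what is called normalized counts.

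Raw counts of the runs were summed into 8 biological replicates with 14880589 to 29422711 counts each. In R 4.3.3, edgeR 4.0.16 (TMM scaling, filterByExpr, quasi-likelihood tests with a mean per group) tested 15758 genes in 5 comparisons: doxorubicin in each line, the difference between these responses, and Cfp1-null against WT with and without drug. P-values were adjusted by Benjamini-Hochberg over all 15758 genes, and 0.05 was the threshold. The fit was tested on simulated data, where it missed many of the smaller changes, most of all for the difference between the responses. It also called some unchanged genes there. Few genes were changed in the simulation, as many up as down, so it could not test how calls depend on the scaling. The replicate number was left out of the model, since nothing states what equal numbers share. Deviations from the group mean correlated between groups at 0.184 to 0.610 over libraries with equal numbers.

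All members were named, and from each list the called genes with the strongest change in the WT response and genes that differed between untreated lines. Alternatives were DESeq2 size factors, total counts alone, DESeq2 1.42.0 (Wald test), no filter, the replicate number as a block, first runs alone, no second run of treated Cfp1-null library 1, only the 2 groups compared, the stricter rule and each library left out. Leaving out the second runs of both treated libraries 1 was added after seeing the data. Sequence copies were searched with BLAST 2.17.0. Proteins and the promoter of H2afx were not in the reference tables and were not analysed here.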

Additional observations from a re-analysis of the deposited data

Results flagged for a closer look

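The log2 fold changes of 2 members after doxorubicin had opposite signs in the lines, with both replicates of each line on the same side. H2afy2 differed by 0.80 between the responses (lower in both treated WT libraries, higher in both treated Cfp1-null libraries), and H1fx by -1.65 (higher in both treated WT libraries, lower in both treated Cfp1-null libraries). The difference itself was tested in edgeR and missed the threshold for both, with an adjusted p of 0.301 for H2afy2 and 0.257 for H1fx, and with any library left out H2afy2 ranged from 0.67 to 0.93 and H1fx from -1.91 to -1.51. Total counts alone shifted the median of all genes by 0.31 in the WT and 0.21 in the Cfp1-null response, and under this shift the signs were no longer opposite for H2afy2 (0.03 in WT and 0.73 in Cfp1-null cells, difference 0.70), and were still opposite for H1fx (1.14 and -0.61, difference -1.75).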

How the results depend on the processing

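The counts of members called were 4 in the WT response, 4 in the Cfp1-null response, 0 for their difference, 5 between untreated and 3 between treated lines. With the replicate block they were 4, 5, 0, 6 and 3. The stricter rule gave 1 and 1 in the responses and 0 and 0 between the lines, and total counts alone gave 2 in the Cfp1-null response. DESeq2's Wald test and no filter each gave 3 in the Cfp1-null response and 6 between untreated lines. Leaving out each library in turn gave 2 to 4 in the WT response, 1 to 4 in the Cfp1-null response, 0 to 0 for the difference, 4 to 5 between untreated lines and 1 to 3 between treated lines, where a lone library is assumed to vary like the other groups. Among the members' fold changes under all settings, 28 lost and 10 gained a call, 46 values without a call changed sign, 672 did neither, and 0 called values changed sign. H2afx passed in its 4 comparisons in each of these fits, and failed the stricter rule between the lines, at 2.38-fold and 2.43-fold. Without correction for exon length, H2afx held 14.3% of the members' summed level in untreated WT cells, against 23.9% with it. For the difference, where edgeR called 0 members, 2 had an unadjusted p under 0.05 and DESeq2 called 0. Each group holds 2 libraries of 1 cell line, so values between the lines describe these lines.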
